A study of Mus musculus with 4 samples.

Results

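The genes described here are 10 mouse genes of the endoplasmic reticulum (ER) that fold secreted and membrane proteins or sense their misfolding: Hspa5, Hsp90b1, Calr, Pdia3, Pdia4, Pdia6, Xbp1, Ern1, Dnajb9 and Sdf2l1. They were chosen with earlier results of these data known and matched by symbol. All 10 were found among the 24391 genes listed in each sample's count file. RNA was sequenced from 4 lung tumour samples. The K-Ras group (n = 2) carried K-RasLSL-G12D, a mutant allele held silent by a floxed stop cassette, and the K-Ras Mll4-/- group (n = 2) carried the same allele together with Mll4fl/fl, floxed alleles of the histone H3 lysine 4 methyltransferase gene Mll4 (symbol Kmt2d). The K-Ras allele is thus shared by both groups, and the Mll4 alleles are what the labels say differs. The labels name no Cre driver, route of induction, age or sex, and do not say whether the samples of a group came from separate mice, so p-values measure the spread between these samples, which may be technical. Tumour tissue was digested to single cells and depleted of CD45-bearing leukocytes before RNA extraction, so the RNA is that of a mixed, tumour-enriched cell suspension.

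Proteins bound for secretion enter the ER unfolded. There they are held by chaperones, given disulfide bonds by protein disulfide isomerases and checked by lectins before export. When unfolded proteins accumulate, the chaperone BiP is drawn away from the membrane sensors IRE1, PERK and ATF6. IRE1 then splices Xbp1 mRNA to yield an active transcription factor, ATF6 is cleaved to yield another, and PERK slows translation. The resulting rise in chaperone, isomerase and degradation genes is called the unfolded protein response. Alveolar type 2 cells, club cells and plasma cells are secretory cells of the lung that depend on this machinery.

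ATF6 and XBP1 act with the factor NF-Y at the ER stress response element, spelled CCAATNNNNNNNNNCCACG, a motif known from the promoters of ER chaperone genes. The 250 bases before the annotated transcription start of each of the 10 genes were searched for it on both strands. All 10 promoters were matched by symbol in a RefSeq table of the GRCm38.p6 build, which is not the build of the deposited counts. The element was present before Hspa5, Hsp90b1, Calr and Pdia6, and Hsp90b1 held it at 2 places that do not overlap. It occurred in 37 of all 32851 windows of the same length, or 0.113%. The shorter element ATTGGNCCACG and the sequence TGACGTGG were found in none of the 10 windows, against 0.0304% and 0.563% of all windows. These 4 genes are among the 9 with higher values in the K-Ras Mll4-/- samples. Pdia4 and Sdf2l1, which had the largest log2 fold changes of the 10 (1.20 and 0.99), held no match to these exact letters. Near copies of the element were not searched for, so a variant of it may be present. A link between the element and the values was not tested. The stretches that hold the element are given 5′ to 3′ on the strand of the gene, with the element in capitals.
Hspa5, GRCm38.p6 chr2:34771840-34772089, plus strand: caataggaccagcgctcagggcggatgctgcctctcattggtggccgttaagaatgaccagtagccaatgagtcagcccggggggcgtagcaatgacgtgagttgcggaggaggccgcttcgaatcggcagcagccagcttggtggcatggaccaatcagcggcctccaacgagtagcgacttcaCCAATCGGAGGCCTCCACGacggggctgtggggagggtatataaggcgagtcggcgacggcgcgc
Hsp90b1, GRCm38.p6 chr10:86705523-86705666, minus strand: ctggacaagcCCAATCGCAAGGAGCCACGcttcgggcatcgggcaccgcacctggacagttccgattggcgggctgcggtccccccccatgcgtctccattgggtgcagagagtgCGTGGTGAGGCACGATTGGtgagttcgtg
Calr, GRCm38.p6 chr8:84847065-84847103, minus strand: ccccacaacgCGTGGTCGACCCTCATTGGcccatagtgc
Pdia6, GRCm38.p6 chr12:17266481-17266519, plus strand: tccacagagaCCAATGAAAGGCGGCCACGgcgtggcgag
In Hspa5 the element runs from 65 to 47 bases before the start, and in Pdia6 from 98 to 80. In Calr it lies on the opposite strand from 162 to 144 bases before the start and so reads CGTGG first. Hsp90b1 has a forward match from 212 to 194 bases before the start and a reverse match from 107 to 89. A match describes these letters only and is not evidence of binding.

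Reads assigned to genes numbered 26683033 to 36677987 per sample, with overlapping ranges in the groups, so the 3 reads taken as the smallest detectable number equal 0.0818 to 0.112 CPM, a gene's reads divided by the size of the library. This floor covers counting error only. Levels are given as CPM after TMM scaling (trimmed mean of M values). The targeted gene Kmt2d was at 395 and 526 CPM in the K-Ras samples and 367 and 317 CPM in the K-Ras Mll4-/- samples, a difference not called by edgeR's quasi-likelihood test (adjusted p = 0.302). Whole-gene counts do not show the loss of floxed exons, so the deletion rests on the labels. Of the lung epithelial markers, Nkx2-1 was detected in all 4 samples at 45.7 to 64.9 CPM, and Ptprc, the gene of CD45, remained detectable at 143 to 274 CPM.

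Of the 10 genes, 9 had higher levels in both K-Ras Mll4-/- samples than in both K-Ras samples, and Xbp1 had lower levels. The 9 comprised the luminal chaperones Hspa5, Hsp90b1 and Sdf2l1, the co-chaperone Dnajb9, the lectin chaperone Calr, the disulfide isomerases Pdia3, Pdia4 and Pdia6, and the sensor gene Ern1. The median log2 fold change of the 10 was 0.81, beside -0.01 over the 16001 genes tested. Since the 10 were chosen with earlier results of these data known, medians and shares set beside all genes are descriptive. No test over the list was run. With edgeR's quasi-likelihood test and Benjamini-Hochberg adjustment over all genes tested, none of the 10 was called at an adjusted p under 0.05, where 0.0375% of all genes were. At an unadjusted p under 0.05, 8 of the 10 passed and all 8 were higher, against 11.4% of all genes in that direction, 10.4% in the other and 21.8% in either. DESeq2 called 6 of the 10, all higher (Hspa5, Hsp90b1, Calr, Pdia3, Pdia4 and Sdf2l1), against 5.23% of all genes in that direction, 5.18% in the other and 10.4% in either, and limma-voom called none (0% of all genes), with 8 at an unadjusted p under 0.05. Groups that did not overlap were common in these data, at 29.9% of all genes in the higher direction, 28.5% in the lower and 58.3% in either. All 10 genes passed the filter on low counts. Without K-Ras Mll4-/- replicate 2, fewer of the 10 passed an unadjusted edgeR p under 0.05. The median log2 fold change of the 10 was then 0.66.

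**Figure D1:**
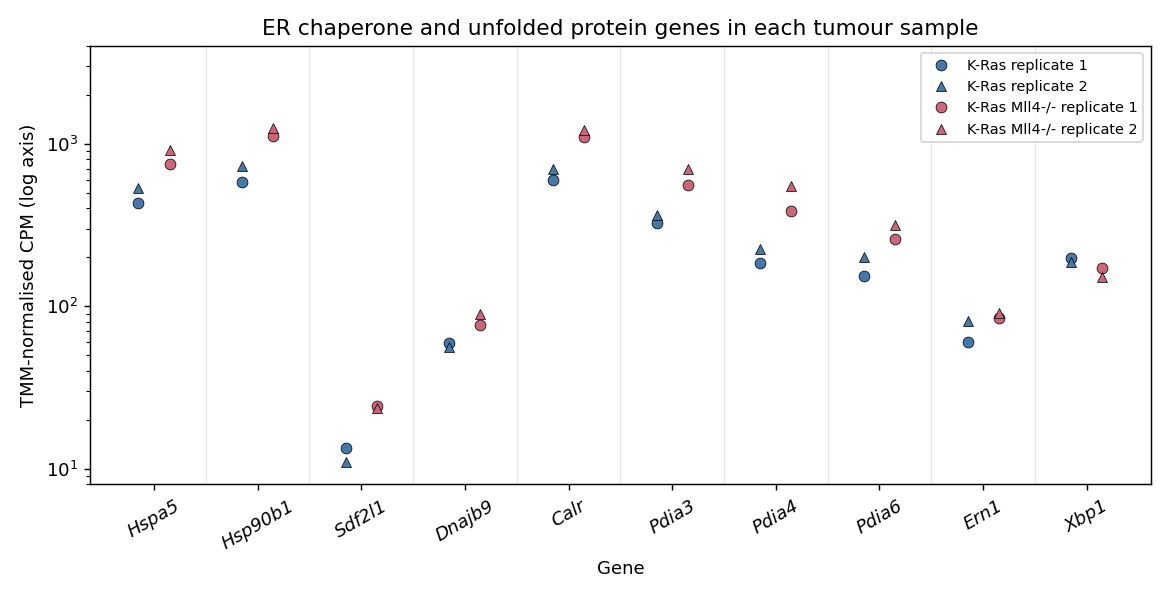
TMM-normalised CPM (log axis) of each of the 10 genes in the 4 samples, K-Ras in blue and K-Ras Mll4-/- in red, with circles for replicate 1 and triangles for replicate 2. In 9 genes both red points lie above both blue points, and in Xbp1 both lie below.

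Hspa5 encodes BiP, the Hsp70 chaperone of the ER lumen and the main repressor of the stress sensors. It was at 429 and 532 CPM in the K-Ras samples and 748 and 920 CPM in the K-Ras Mll4-/- samples, so the groups did not overlap. The lower K-Ras Mll4-/- sample was 1.41 times the higher K-Ras sample. The log2 fold change was 0.80 (SE 0.21, edgeR adjusted p = 0.177).

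Hsp90b1 encodes GRP94, the Hsp90 chaperone of the ER, which folds integrins and Toll-like receptors. It was at 580 and 728 CPM in the K-Ras samples and 1120 and 1246 CPM in the K-Ras Mll4-/- samples. Replicates of a group differed less than the groups did, and the log2 fold change was 0.86 (SE 0.21, edgeR adjusted p = 0.166). In GENCODE M21, 14.7% of its exonic bases are overlapped by a pseudogene on the other strand, and the strand setting of the counts is not given in the sources used here. Exons of other listed genes overlapped at most 2.30% of the exonic bases of any of the other 9.

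Sdf2l1 encodes a small ER protein that works with BiP and its co-chaperones to keep clients soluble. Its levels were 13.3 and 10.9 CPM in the K-Ras samples and 24.4 and 23.7 CPM in the K-Ras Mll4-/- samples, on 394 to 765 reads. It had the lowest edgeR p of the 10 (log2 fold change 0.99, SE 0.18, unadjusted p = 0.00327, adjusted p = 0.147), and the K-Ras Mll4-/- samples differed from each other by less than the K-Ras samples did. The lower K-Ras Mll4-/- sample was 1.78 times the higher K-Ras sample.

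Dnajb9 encodes ERdj4, a J-domain co-chaperone that recruits BiP to IRE1 and to misfolded proteins and is a well known XBP1 target. It was at 59.1 and 55.8 CPM in the K-Ras samples and 76.3 and 89.3 CPM in the K-Ras Mll4-/- samples. Its log2 fold change of 0.53 (SE 0.14, adjusted p = 0.174 by edgeR) was smaller than those of Hspa5, Hsp90b1 and Sdf2l1, and the difference between these genes was not tested.

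Calr encodes calreticulin, the soluble lectin that holds newly made glycoproteins and stores calcium. It was at 599 and 702 CPM in the K-Ras samples and 1095 and 1212 CPM in the K-Ras Mll4-/- samples, with no overlap (log2 fold change 0.83, SE 0.19, edgeR adjusted p = 0.163). Pdia3 encodes ERp57, the isomerase that calreticulin and calnexin bring to glycoproteins. Its levels were 326 and 364 CPM in the K-Ras samples and 559 and 700 CPM in the K-Ras Mll4-/- samples (log2 fold change 0.87, SE 0.19, edgeR adjusted p = 0.157). The calreticulin and ERp57 genes thus differed by similar amounts, 1.77-fold and 1.82-fold.

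Pdia4 encodes ERp72, an isomerase found in complexes with BiP and GRP94. Its levels were 185 and 225 CPM in the K-Ras samples and 388 and 552 CPM in the K-Ras Mll4-/- samples. The log2 fold change of 1.20 (SE 0.24, adjusted p = 0.153 by edgeR) was the largest of the 10, a 2.29-fold difference, and the only one past 1. In the direction of higher values, 5.03% of all genes tested reached a log2 fold change of 1. Pdia6 encodes P5, an isomerase that also switches off activated IRE1 and PERK. It was at 153 and 201 CPM in the K-Ras samples and 260 and 314 CPM in the K-Ras Mll4-/- samples (log2 fold change 0.70, SE 0.21, edgeR adjusted p = 0.186).

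Ern1 encodes IRE1-alpha, the kinase and endoribonuclease that senses unfolded proteins. It was at 60.4 and 80.8 CPM in the K-Ras samples and 84.5 and 91.3 CPM in the K-Ras Mll4-/- samples, and the nearest samples of the groups differed only 1.05-fold. Its log2 fold change of 0.32 (SE 0.18, unadjusted p = 0.147, edgeR adjusted p = 0.362) was not separated from the spread between replicates. Xbp1, whose mRNA is the substrate of IRE1, was at 198 and 186 CPM in the K-Ras samples and 171 and 150 CPM in the K-Ras Mll4-/- samples. Its log2 fold change was -0.26 (SE 0.14, unadjusted p = 0.132, edgeR adjusted p = 0.344). The direction of Xbp1 was opposite to that of the other 9 under every alternative run. Whole-gene counts do not tell spliced from unspliced Xbp1 mRNA, so the activity of the factor is not measured here.

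**Figure D2:**
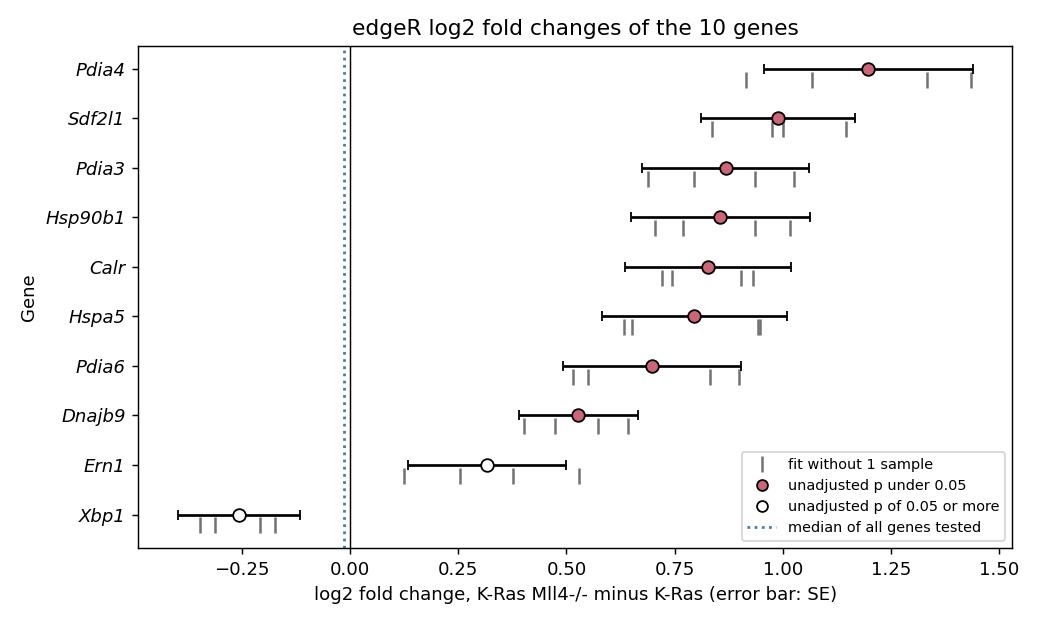
edgeR log2 fold change (x axis, K-Ras Mll4-/- minus K-Ras) of each gene, with its standard error as a bar and grey ticks for the 4 fits that each leave out 1 sample. Filled points mark an unadjusted p under 0.05, and the dotted line is the median of all genes tested, -0.01. The 8 filled points lie from 0.53 to 1.20, and the ticks of each gene stay on the same side of 0 as its point.

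Together the 10 genes took 0.273% and 0.304% of the gene-assigned reads in the K-Ras samples and 0.446% and 0.519% in the K-Ras Mll4-/- samples. Per kilobase of transcript (the longest coding transcript in GENCODE M21, which need not be the authors' gene model), Calr had the highest level in the K-Ras group, at 298 ± 33.2 CPM per kb (SD, n = 2), followed by Hsp90b1 at 231 ± 37.1. Hspa5 and Pdia3 followed at 131 ± 19.9 and 125 ± 9.71 CPM per kb and overlapped each other. Xbp1, Pdia4 and Pdia6, at 90.1 ± 3.78, 85.4 ± 11.7 and 81.4 ± 15.9 CPM per kb, could not be ordered beyond their spread. Dnajb9 was lower, at 23.3 ± 0.925 CPM per kb. Sdf2l1 and Ern1 were lowest, at 10.9 ± 1.56 and 10.2 ± 2.08 CPM per kb, and overlapped. In the K-Ras Mll4-/- group Calr and Hsp90b1 again led, at 528 ± 38.0 and 419 ± 31.4 CPM per kb. Pdia3, Hspa5 and Pdia4 formed an overlapping trio at 227 ± 35.9, 227 ± 33.0 and 196 ± 48.3 CPM per kb. Xbp1, at 75.5 ± 6.87 CPM per kb, now stood below Pdia6 at 132 ± 17.4 and above Dnajb9 at 33.6 ± 3.73. Sdf2l1, at 21.7 ± 0.408 CPM per kb, was above Ern1 at 12.7 ± 0.682 without overlap.

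Ratios of reads within a sample do not depend on the scaling between samples. For each Xbp1 read there were 2.17 and 2.86 Hspa5 reads in the K-Ras samples and 4.38 and 6.12 in the K-Ras Mll4-/- samples. A sum was taken over 7 genes of luminal proteins (Hspa5, Hsp90b1, Calr, Pdia3, Pdia4, Pdia6 and Sdf2l1), without the co-chaperone Dnajb9. It gave 11.6 and 14.8 reads per Xbp1 read against 24.5 and 33.0. The groups did not overlap in either ratio, but an exact two-sided permutation test of 2 against 2 cannot give a p below 0.333. Among the 7 genes, proportions to Hspa5 overlapped between the groups for Hsp90b1, Calr, Pdia3 and Sdf2l1. Pdia4 stood apart, with 0.431 and 0.422 reads per Hspa5 read in the K-Ras samples and 0.518 and 0.600 in the K-Ras Mll4-/- samples. Pdia6 had slightly fewer reads per Hspa5 read in the K-Ras Mll4-/- samples, 0.348 and 0.341 against 0.356 and 0.378.

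Hspa8 and Hsp90ab1, the constitutive cytosolic counterparts of BiP and GRP94, were set beside them, a choice made after their values were seen. Hspa8 was at 1062 and 1492 CPM in the K-Ras samples and 2004 and 2148 CPM in the K-Ras Mll4-/- samples (log2 fold change 0.70, SE 0.25, edgeR adjusted p = 0.216). Hsp90ab1 was at 789 and 1002 CPM and at 1576 and 1731 CPM in the respective groups (log2 fold change 0.88, SE 0.22, edgeR adjusted p = 0.167). Each sample held 0.357 to 0.428 Hspa5 reads per Hspa8 read, with the groups overlapping. Hsp90b1 reads per Hsp90ab1 read were 0.734 and 0.727 in the K-Ras samples and 0.711 and 0.720 in the K-Ras Mll4-/- samples, so the groups did not overlap, with the K-Ras Mll4-/- mean at 0.979 times the K-Ras mean.

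**Figure D3:**
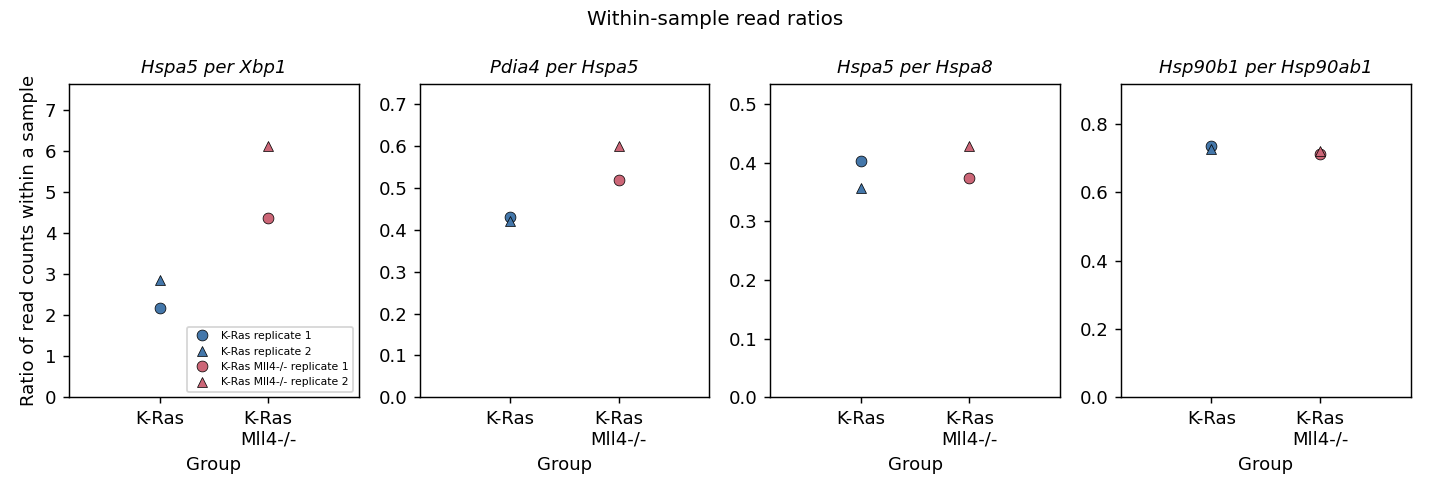
Ratios of read counts within each sample (y axes from 0), by group, with circles for replicate 1 and triangles for replicate 2. Hspa5 per Xbp1 read lies at 2.17 and 2.86 in K-Ras and 4.38 and 6.12 in K-Ras Mll4-/- samples, while Hspa5 per Hspa8 read overlaps between the groups and Hsp90b1 per Hsp90ab1 read stays between 0.711 and 0.734.

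Other genes of ER protein folding were taken from fixed lists, and none was called by edgeR at an adjusted p under 0.05. Of all genes tested, 11.4% were higher and 10.4% lower at an unadjusted edgeR p under 0.05, and DESeq2 called 5.23% higher and 5.18% lower. Among 22 ER chaperones and cofactors, 8 were higher and 1 lower at an unadjusted edgeR p under 0.05, with a median log2 fold change of 0.31. DESeq2 called 1 higher and 1 lower. Ppib, a prolyl isomerase gene, was at 84.8 and 77.3 CPM in the K-Ras samples and 119 and 142 CPM in the K-Ras Mll4-/- samples (log2 fold change 0.69, SE 0.15, edgeR adjusted p = 0.156). Sil1, a nucleotide exchange factor of BiP, had a log2 fold change of 0.53 (SE 0.12, adjusted p = 0.163 by edgeR).

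Of 18 oxidative folding enzymes, 9 were higher and 1 lower at an unadjusted edgeR p under 0.05, and DESeq2 called 3, all higher. Ero1l, the oxidase that recharges protein disulfide isomerases, was at 56.8 and 56.8 CPM in the K-Ras samples and 120 and 173 CPM in the K-Ras Mll4-/- samples, a log2 fold change of 1.37 (SE 0.21, adjusted p = 0.138 by edgeR, DESeq2 adjusted p = 3.75e-05). Prdx4, the peroxiredoxin of the ER lumen, was at 20.3 and 20.8 CPM against 36.7 and 47.3 CPM (log2 fold change 1.03, SE 0.18, edgeR adjusted p = 0.147). Both genes had larger log2 fold changes than Hspa5, a difference that was not tested. Of 10 tested calnexin cycle genes, 5 were higher and none lower at an unadjusted edgeR p under 0.05 (DESeq2 called 2, both higher). The smallest p-values were those of Mogs, the first glucose-trimming enzyme (log2 fold change 0.80, SE 0.16, edgeR adjusted p = 0.153), and Prkcsh, a glucosidase subunit gene (log2 fold change 0.45, SE 0.12, edgeR adjusted p = 0.177).

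The translocon and signal peptidase list had 11 of 21 genes higher and none lower at an unadjusted edgeR p under 0.05, with a median log2 fold change of 0.40, and DESeq2 called 1. Spcs2, a signal peptidase subunit gene, had a log2 fold change of 0.51 (SE 0.11, adjusted p = 0.157 by edgeR), and Sec61a1, the pore of the translocon, had 0.69 (SE 0.17, edgeR adjusted p = 0.168). In ER to Golgi transport 5 of 22 tested genes were higher and none lower at that p, with a median of 0.24, and DESeq2 called 1, beside 11.4% and 5.23% of all genes higher by these rules. Arf4, a small GTPase gene of the early secretory pathway, had a log2 fold change of 0.60 (SE 0.13, adjusted p = 0.155 by edgeR), and Kdelr1, the receptor that returns KDEL-tagged chaperones to the ER, had 0.55 (SE 0.14, edgeR adjusted p = 0.169).

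The degradation arm and the sensors had smaller medians. Of 21 ER-associated degradation genes, 4 were higher and none lower at an unadjusted edgeR p under 0.05 (11.4% of all genes were higher), with a median log2 fold change of 0.22, and DESeq2 called none. Derl3 (log2 fold change 0.72, SE 0.22) and Edem1 (0.46, SE 0.14) had the smallest p-values, with edgeR adjusted p of 0.187 and 0.188. They encode a membrane channel component and a mannose-trimming lectin of that pathway. Of 17 UPR sensors and transcription factors, none was higher and 1 was lower at that p, with a median of 0.14. The 1 was Ppp1r15a, which encodes GADD34, the phosphatase subunit that reverses the PERK signal. It was at 98.8 and 127 CPM in the K-Ras samples and 67.7 and 72.3 CPM in the K-Ras Mll4-/- samples (log2 fold change -0.69, SE 0.17, edgeR adjusted p = 0.166, DESeq2 adjusted p = 0.0335). Creb3l4, a secretory-cell transcription factor gene, came next (log2 fold change 0.65, SE 0.30, edgeR adjusted p = 0.279). The PERK gene Eif2ak3 (log2 fold change 0.21, SE 0.13), Atf6 (0.20, SE 0.12), Atf4 (0.16, SE 0.16) and Ddit3 (0.07, SE 0.20), the last being the CHOP gene of the PERK arm, were named after their values were seen. Their edgeR adjusted p values ran from 0.403 to 0.873.

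Of 23 cytosolic chaperone genes, 17 had a positive log2 fold change, as did 48.8% of all genes tested. At an unadjusted edgeR p under 0.05, 13 were higher and none lower, beside 11.4% and 10.4% of all genes. The median log2 fold change was 0.43, and DESeq2 called 5, all higher, where it called 5.23% of all genes higher. The chaperonin subunit genes Cct5 and Cct7 had the smallest p-values (log2 fold changes 0.74 and 0.75, SE 0.14 each, edgeR adjusted p = 0.147 each). The heat-inducible genes Hspa1a and Hspa1b, named after their values were seen, overlapped between the groups and were highest in K-Ras replicate 2, at 181 and 254 CPM. Of 12 mitochondrial chaperones and proteases, 11 had a positive log2 fold change, 5 were higher and none lower at that p, with a median of 0.34, and DESeq2 called 3. Hspd1 (log2 fold change 0.89, SE 0.14, edgeR adjusted p = 0.141) and Hspe1 (0.74, SE 0.13, edgeR adjusted p = 0.147) had the smallest p-values there. They encode the matrix chaperonin and its lid.

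**Figure D4:**
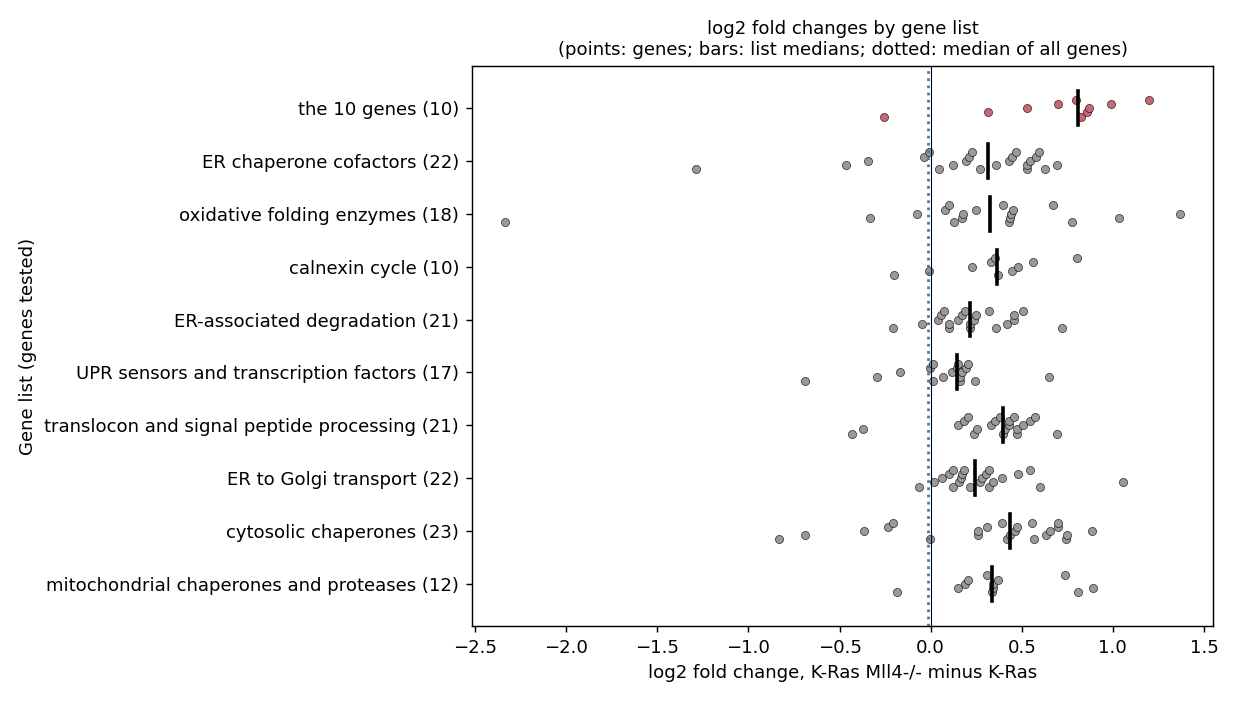
edgeR log2 fold changes (x axis, K-Ras Mll4-/- minus K-Ras) of the tested genes in each list, 1 point per gene, with a black bar at each list's median and a dotted line at the median of all genes, -0.01. The median of the 10 genes lies at 0.81, those of the other lists between 0.14 (UPR sensors and transcription factors) and 0.43 (cytosolic chaperones).

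Cell type markers also differed between the samples, and fewer cells of a type and less RNA per cell cannot be told apart in bulk RNA. The 6 epithelial markers summed to 952 and 1609 CPM in the K-Ras samples and 3912 and 4060 CPM in the K-Ras Mll4-/- samples. Of the 6, 5 were higher without overlap, as were 29.9% of all genes. The exception was Nkx2-1, which overlapped at 45.7 and 62.7 CPM against 47.8 and 64.9 CPM (log2 fold change 0.06, SE 0.24). The 8 endothelial markers summed to 7454 and 6959 CPM against 4554 and 3612 CPM, and the 8 fibroblast markers to 2616 and 1195 CPM against 917 and 923 CPM. The sum of the 9 alveolar type 2 markers overlapped, at 22780 and 34753 CPM against 29274 and 29115 CPM, but single genes differed both ways. Of the 9, 1 was higher and 2 were lower without overlap, beside 29.9% and 28.5% of all genes. Sftpb was higher, at 2871 and 5629 CPM against 7045 and 10342 CPM, and Napsa and Sftpa1 were lower. The median log2 fold change of the 9 was -0.23. The ciliated list (8 of 8 genes lower without overlap, as were 28.5% of all genes) was at 153 and 854 CPM against 85.9 and 91.7 CPM, and the club list at 738 and 3738 CPM against 792 and 612 CPM, with K-Ras replicate 2 far above the other 3 samples in both. The median log2 fold change of the 10 ER genes was 0.92 without K-Ras replicate 2 and 0.68 without K-Ras replicate 1. The sum of the 11 leukocyte markers overlapped, at 280 to 689 CPM in K-Ras and 352 to 561 CPM in K-Ras Mll4-/- samples. Of the 11, 3 were higher (Cd8a, Nkg7 and Ms4a1) and 2 lower (Itgam and S100a8) without overlap, beside 29.9% and 28.5% of all genes. The macrophage marker sum ranged from 974 to 7233 CPM with overlap. No defining marker in these lists was at 0 in all samples. The part of epithelial and stromal content in the differences of the 10 genes was not tested.

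Plasma cells carry very high levels of Xbp1 and ER chaperones, so their markers bear on these genes directly. The list of 11 summed to 1036 and 997 CPM in the K-Ras samples and 1335 and 1679 CPM in the K-Ras Mll4-/- samples, but Sdc1, which epithelial cells also express, made up 1009 and 1461 CPM of the latter. The immunoglobulin joining chain gene Jchain was at 386 and 274 CPM in the K-Ras samples and 194 and 107 CPM in the K-Ras Mll4-/- samples. Mzb1, an ER chaperone of plasma cells, was at 9.71 and 6.83 CPM against 3.50 and 3.20 CPM. In all, 6 of the 11 were lower and 1 higher without overlap between the groups, where 28.5% of all genes were lower and 29.9% higher in this way. In mucous and gastric-type markers the sum was 123 and 399 CPM against 459 and 592 CPM, with Gkn2 at 317 and 384 CPM of the latter. Gkn2 alone was called by edgeR (3.47 and 3.18 CPM in the K-Ras samples, adjusted p = 0.0184), and Gkn1 had 0 reads in both K-Ras samples. Of the 10 tested genes of this list, 5 were higher and 2 lower without overlap, beside 29.9% and 28.5% of all genes. Those lower were Bpifb1 (14.9 and 39.3 CPM against 12.7 and 7.69 CPM) and Spdef (0.916 and 1.41 CPM against 0.533 and 0.124 CPM). Muc5b overlapped, at 92.1 and 342 CPM against 81.0 and 112 CPM. Agr2, the disulfide isomerase of mucin-making cells, overlapped between the groups at 0.818 to 5.81 CPM. Agr3, from the same oxidative folding list, was lower without overlap, at 0.948 and 3.90 CPM against 0.495 and 0.465 CPM. Agr2 and Agr3 were named after their values were seen. The part of plasma cells and of mucous and gastric-type cells in the differences of the 10 genes was not tested.

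**Figure D5:**
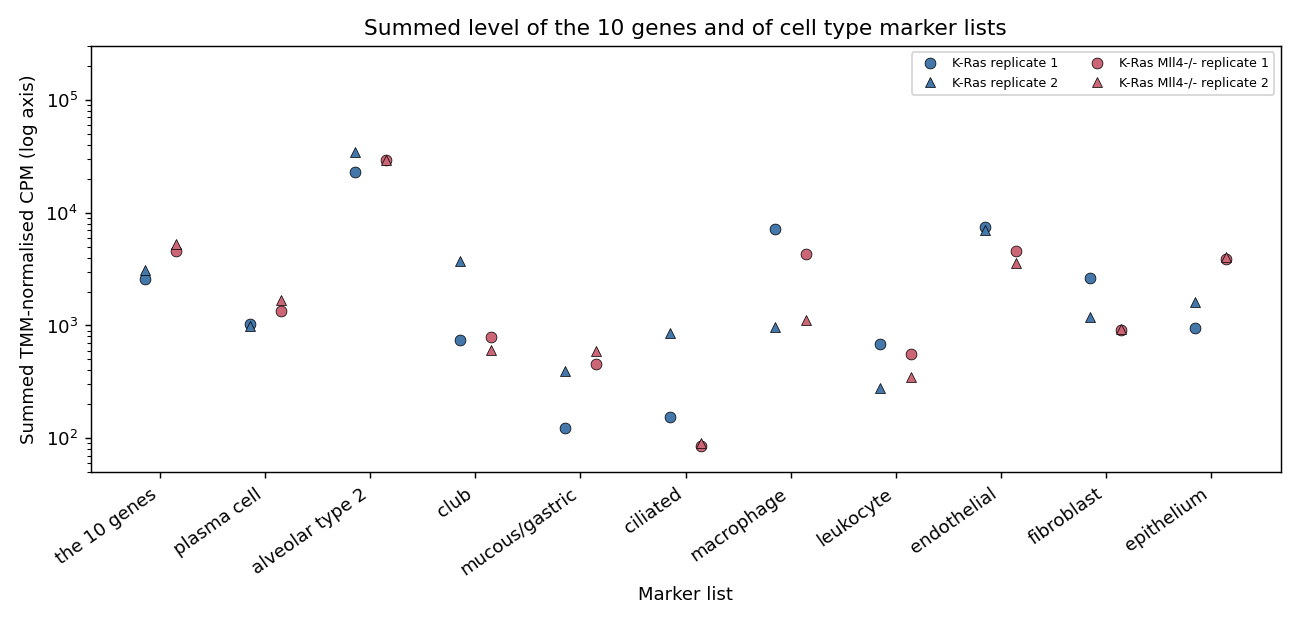
Summed TMM-normalised CPM (log axis) of the 10 genes and of each cell type marker list in the 4 samples, K-Ras in blue and K-Ras Mll4-/- in red, with circles for replicate 1 and triangles for replicate 2. The 10 genes and the epithelial, plasma cell and mucous/gastric lists lie higher in both red points. The endothelial, fibroblast and ciliated lists lie lower, and the alveolar type 2, club, macrophage and leukocyte lists overlap.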

How the data were processed

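RNA was sequenced from 4 lung tumour samples, 2 per group, with group and number as each title gives them. The authors deposited unnormalised counts of reads by gene symbol, 1 file per sample. Per the submitters' processing notes, CASAVA 1.4, STAR and HTSeq were used and the build was mm9. The annotation and strand setting are not given in the sources used here. Closing tally lines, kept out of library sizes, held 24.1% to 26.7% of each file's total as reads outside genes, 31.5% to 36.7% as reads aligned to more than 1 place, 0.262% to 0.321% as reads in overlapping genes, 1.84% to 2.40% as unaligned and 0.175% to 0.202% as low quality.

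All genes were fitted at once with edgeR 4.0.16 in R 4.3.3 (filterByExpr, TMM, robust quasi-likelihood test, no block), with p-values adjusted over the 16001 genes kept by the method of Benjamini and Hochberg. A standard error is the log2 fold change divided by the square root of F. Alternatives used DESeq2 1.42.0, limma-voom (limma 3.58.1) and offsets from mgcv 1.9.3 smooths on GC content and transcript length, known for 15864 genes. The fits were checked on simulated counts. The 10 genes and all lists were chosen with earlier results of these data known. From each pathway list the 2 genes with the smallest edgeR p were named, and others are marked as chosen after their values were seen. Promoter sequences are from RefSeq and transcript lengths from GENCODE M21, both on GRCm38.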

Additional observations from a re-analysis of the deposited data

How the results depend on the processing

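The median log2 fold change of the 10 genes, 0.81, stayed between 0.76 and 0.82 under other scalings, count filters, tests, the replicate block and GC and length offsets, and between 0.66 and 0.92 when each sample was left out in turn. In each of these 14 alternatives 9 genes were higher and Xbp1 lower. The number at an unadjusted p under 0.05 was 8 in the main fit and 8 or 9 in the other alternatives with all samples. It was lowest without K-Ras Mll4-/- replicate 2. The share of all genes at that p is given only for the main edgeR fit, 21.8% in either direction. DESeq2 called 6 of the 10, while without K-Ras Mll4-/- replicate 2 the edgeR adjusted p of the 10 ran from 0.772 to 0.863. Pdia4 was also called with the block fitted together with the offsets (edgeR adjusted p = 0.0346). Against 6 genes called over the whole table, no count filter gave 44, the replicate block 217, DESeq2 1601, limma-voom 0, and the block fitted together with the offsets 513. Leaving out 1 sample gave 0 to 528, with 528 without K-Ras replicate 1 and 0 without any of the other 3. Samples with the same number deviated together at r = 0.21 across genes, but there are only 2 pairs, and the labels do not say what a number marks, so the numbers were not taken to pair the samples. With the replicate block the members' median was 0.81 and none was called. Each of the 10 genes had at least 394 reads in every sample.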

Other observations

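The full ER stress response element was found in 37 promoter windows, belonging to 35 genes, of which 20 were tested. Beside Hspa5, Hsp90b1, Calr and Pdia6, these included 6 genes of the fixed ER lists, Canx, Creld2, Derl3, Dnajc3, Ero1lb and Syvn1. This search was chosen after the values were seen. Of the 16 tested genes outside the 10, 3 were higher and 2 lower at an unadjusted edgeR p under 0.05, beside 11.4% and 10.4% of all genes, and their median log2 fold change was 0.15, beside -0.01 over all genes tested. The largest log2 fold changes among the 16 were in genes outside the ER lists, Adcy3, an adenylate cyclase gene (1.26, SE 0.30, edgeR adjusted p = 0.165), and Acacb, an acetyl-CoA carboxylase gene (-1.18, SE 0.21, edgeR adjusted p = 0.147). Canx, which encodes the membrane-bound partner of calreticulin, was at 518 and 500.4 CPM in the K-Ras samples and 738 and 765 CPM in the K-Ras Mll4-/- samples (log2 fold change 0.56, SE 0.16, edgeR adjusted p = 0.181). Creld2 was at 21.4 and 40.8 CPM against 45.4 and 48.6 CPM, and Dnajc3, the p58IPK co-chaperone gene, at 243 and 257 CPM against 274 and 310 CPM. Syvn1, the ubiquitin ligase gene of ER-associated degradation, overlapped between the groups (40.4 and 53.8 CPM against 50.6 and 56.7 CPM).

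Herpud1, a degradation gene often used as a reporter of ER stress, overlapped between the groups, at 243 and 445 CPM in the K-Ras samples and 315 and 280 CPM in the K-Ras Mll4-/- samples (log2 fold change -0.21, SE 0.33, edgeR adjusted p = 0.738). Ern2, the IRE1-beta gene of mucous epithelium, was at 0.164 and 0.332 CPM in the K-Ras samples and 2.44 and 0.403 CPM in the K-Ras Mll4-/- samples, so its value rests on K-Ras Mll4-/- replicate 1. Herpud1 and Ern2 were named after their values were seen.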
